A study of Mus musculus with 4 samples.

Results

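Lyz1, Lyz2, Mmp7, Ang4, Itln1, Defa17, Defa24 and Habp2 form a set of 8 genes listed for products of Paneth cell secretory granules. Within it, Lyz2 is the lysozyme of macrophages and neutrophils, and Itln1 is found in goblet as well as Paneth cells. The 8 genes were chosen by name, with earlier results of these data known, and all 8 were found among the 38124 gene IDs of the count tables. Poly(A) RNA was sequenced from sorted intestinal epithelial cells of C57BL/6 male mice aged 71 weeks. There were 4 libraries, 1 for each combination of diet and fraction: GFP-high cells of mice fed a high-fat diet (HFD), GFP-high cells of control mice, GFP-low cells of HFD mice, and GFP-low cells of control mice. The labels call the GFP-high cells stem cells and the GFP-low cells progenitors, and they title the control libraries WT, give the diet of those mice as normal, and name no other treatment. Each library was a pool of 2 to 5 mice and no group has a replicate. The labels name neither the gene that drives GFP nor a sort step for or against Paneth cells, and they do not state whether the GFP-high and GFP-low cells of 1 diet shared their mice.

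Paneth cells sit at the base of small intestinal crypts, between the stem cells, and release granules of antimicrobial proteins into the crypt lumen. Their granules hold lysozyme, which cuts the peptidoglycan of bacterial walls, the alpha-defensins, which disrupt bacterial membranes, and enzymes and lectins that process or accompany them. In mice the alpha-defensins are made as precursors that matrilysin, the product of Mmp7, cuts into active peptides.

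The libraries held between 4677389 and 6207080 counts, and 3 counts correspond to between 0.483 and 0.641 CPM before scaling (counts in a library of 1000000), the level that a count of 0 still allows. The reads carry no molecular identifiers, so this limit and all intervals below cover counting error only. The 12 stem cell markers summed to 9917 and 10970 CPM in the HFD and control GFP-high libraries, against 1616 and 2121 CPM in the HFD and control GFP-low libraries. Lgr5, the receptor that marks crypt base stem cells, was at 243 CPM in both GFP-high libraries, against 12.6 and 12.7 CPM in the HFD and control GFP-low libraries. The HFD GFP-high library had the lowest share of mitochondrial ribosomal RNA, 1.18% of counts, against between 2.54% and 2.82% in the others. Mitochondrial mRNA took 17.1% and 16.8% of counts in the HFD GFP-high and HFD GFP-low libraries, against 14.9% and 14.1% in the control GFP-high and control GFP-low libraries, and so was higher in both HFD libraries. The part of these differences in the results was not tested.

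How far the counts of a member can be told from those of its relatives depends on its sequence. Lyz1 lies at chr10:117287797-117292868 and its neighbour Lyz2 at chr10:117277331-117282321, both on the minus strand of GRCm38. Their coding sequences of 444 bases differed at 22 positions. The stretch from base 43 to base 132 of each coding sequence holds 13 of these differences, shown in capitals because they are what separates reads of the Paneth cell lysozyme from reads of the myeloid one (GENCODE transcripts, 5′ to 3′).
Lyz1: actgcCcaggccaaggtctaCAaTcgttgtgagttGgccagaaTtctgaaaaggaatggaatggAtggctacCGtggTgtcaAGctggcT
Lyz2: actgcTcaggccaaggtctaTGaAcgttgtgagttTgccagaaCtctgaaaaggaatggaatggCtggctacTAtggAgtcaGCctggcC

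The alpha-defensins are harder to separate. Defa17 lies at chr8:21655780-21656735 and Defa24 at chr8:21734494-21735471, both on the plus strand of GRCm38, in a cluster of near-identical genes. The last 105 coding bases, which encode the mature peptide end of the precursor, are shown for Defa24 and for its relatives Defa17 and Defa30, with capitals where a base differs from Defa24. Defa17 differed from Defa24 at 7 of these bases and Defa30 at 1.
Defa24: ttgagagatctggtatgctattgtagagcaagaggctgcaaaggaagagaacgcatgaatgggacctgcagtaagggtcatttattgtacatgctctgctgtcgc
Defa17: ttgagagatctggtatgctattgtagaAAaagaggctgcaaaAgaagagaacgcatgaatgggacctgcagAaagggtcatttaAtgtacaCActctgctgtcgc
Defa30: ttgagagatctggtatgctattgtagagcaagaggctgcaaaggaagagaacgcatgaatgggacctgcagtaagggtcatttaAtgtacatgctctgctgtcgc

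Over the whole transcripts, 92.7% of the 40-base words of Defa17 occurred in another gene, most of them in Defa3, and 40.3% of those of Defa24. The share was 24.3% for Lyz1 and 23.3% for Lyz2, all of it between that pair, 7.61% for Ang4 and 2.03% for Itln1. Mmp7 and Habp2 shared none. The values of Defa17 and Defa24 are therefore uncertain as values of single genes, and are set beside the family sum further below. That sum includes their own counts and is not a separate measurement. Of the other members, Mmp7 lies at chr9:7692090-7699585 (plus strand), Ang4 at chr14:51763878-51773590 (minus strand), Itln1 at chr1:171518122-171535294 (minus strand) and Habp2 at chr19:56287137-56320822 (plus strand). Habp2 overlaps Nrap on the opposite strand, and Mmp7 overlaps the antisense gene AV064505, which had 0 counts in every library. Since the sources used here do not give the strand setting of the counting, reads of such partners cannot be told apart.

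Measured per length, Lyz1 was the most abundant member in every library. It was at 184 CPM per kilobase of exon in the HFD GFP-high library and 297 in the control GFP-high library, and at 464 and 726 in the HFD and control GFP-low libraries. Defa24 followed in 3 of the libraries, at 135, 194 and 316 CPM per kilobase in the HFD GFP-high, control GFP-high and HFD GFP-low libraries. In the control GFP-low library Defa24 and Itln1 were next to each other, at 607 and 603. Lyz2 was the lowest member in every library, between 0.458 and 2.93 CPM per kilobase, and Habp2 the next lowest, between 2.83 and 8.11. All 8 members together made up 0.0489% of the counts of the HFD GFP-high library and 0.0815% of the control GFP-high library, against 0.104% and 0.214% of the HFD and control GFP-low libraries.

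**Figure D1:**
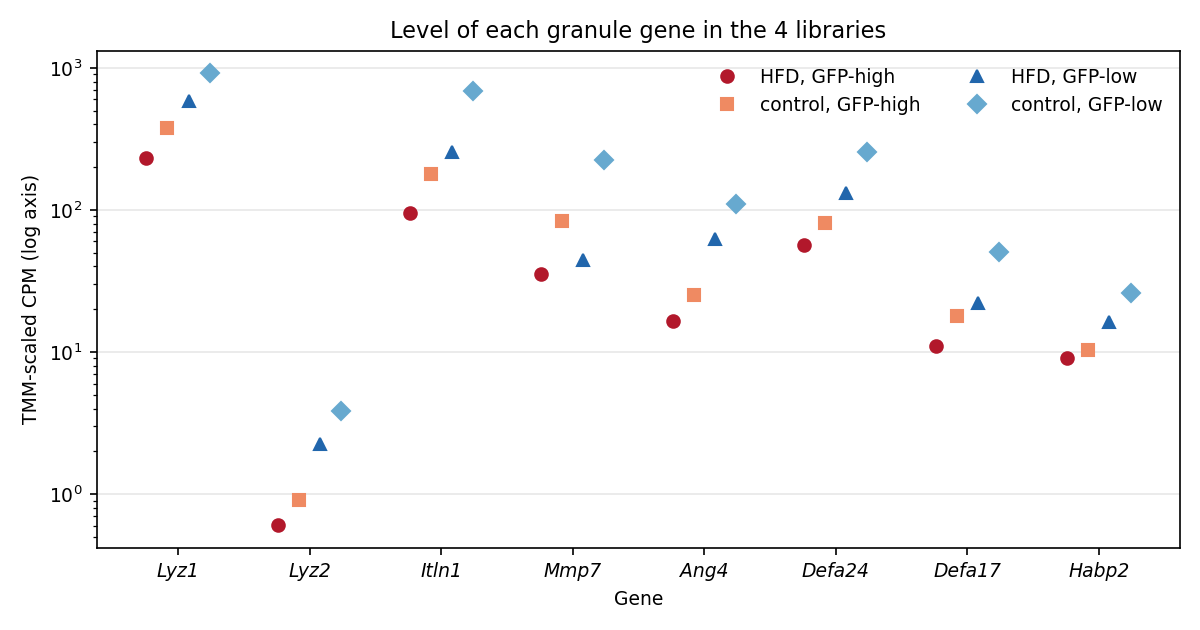
Level of each member in each library, as TMM-scaled CPM on a log axis, with 1 point per library and no error bars. For every member the GFP-high point lies below the GFP-low point of the same diet, and the HFD point lies below the control point of the same fraction.

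Both comparisons had the same direction for every member. The transcripts of the set were less abundant in the GFP-high than in the GFP-low cells of the same diet, and less abundant under HFD than under the control diet in the same fraction. Of the 8 members, 7 had enough counts to be tested, with at least 57 counts in every library, and Lyz2 did not. In edgeR's quasi-likelihood test over 10694 genes, 7 of 7 tested members fell in GFP-high cells, where 24.8% of all genes tested did. In the same test 6 of 7 fell under HFD, where 2.93% of all genes tested did. No member rose in GFP-high cells or under HFD, where 21.4% and 2.15% of all genes tested did. Since the members were chosen with earlier results of these data known, these shares are a description and not a test of the set. Habp2 was the exception for diet. In bulk libraries such as these, fewer Paneth cells and less of these RNAs per Paneth cell cannot be told apart.

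These tests rest on 4 libraries in an additive model with 1 residual degree of freedom, which borrows its spread across genes. With diet as the only term, without the fraction, 0 of 7 members and 0 of 10694 genes passed for HFD over control, with 154 genes at an unadjusted p under 0.05. In DESeq2's Wald test with both terms, 189 genes passed for diet, 4 members among them, and Ang4 and Defa17 did not, with adjusted p = 0.156 and 0.135.

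Lyz1, the lysozyme of Paneth cells, was at 232 CPM (scaled by edgeR's trimmed mean of M-values, TMM, as are all levels in CPM here) in HFD GFP-high cells and 375 CPM in control GFP-high cells. It was at 586 CPM in HFD GFP-low cells and 917 CPM in control GFP-low cells. Each diet step was smaller than the step between fractions, and the highest value was that of the control GFP-low library. Lyz1 fell 1.59-fold under HFD (log2 -0.67 ± 0.10 SE, adjusted p = 0.00265, edgeR). It fell 2.48-fold in GFP-high over GFP-low cells (log2 -1.31 ± 0.10, adjusted p = 2.69e-06, edgeR). The diet ratio was close in both fractions, with a log2 ratio of -0.69 (95% interval -0.79 to -0.59) in GFP-high and -0.64 (-0.71 to -0.57) in GFP-low cells. The interval of the difference between those ratios, -0.16 to 0.07, includes 0.

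Lyz2, the lysozyme of macrophages and neutrophils, had 4 counts in HFD GFP-high cells and 5 in control GFP-high cells, and 11 in HFD GFP-low cells and 17 in control GFP-low cells. It was the lowest member throughout. These counts made up 0.259% and 0.243% of the summed Lyz1 and Lyz2 counts in HFD and control GFP-high cells, and 0.379% and 0.419% in HFD and control GFP-low cells. At this depth no diet difference was detectable, since the log2 ratio of HFD over control was -0.60 (95% interval -2.93 to 1.62) in GFP-high cells and -0.79 (-2.03 to 0.39) in GFP-low cells. GFP-high over GFP-low cells gave -1.89 (-4.00 to -0.13) under HFD and -2.08 (-3.88 to -0.58) under the control diet.

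Mmp7, the protease that activates the alpha-defensins, was at 35.4 CPM in HFD GFP-high cells and 83.9 CPM in control GFP-high cells. It was at 44.5 CPM in HFD GFP-low cells and 225 CPM in control GFP-low cells. The HFD libraries were thus near each other, and the control GFP-low library stood far above the other 3. Mmp7 fell 3.50-fold under HFD (log2 -1.81 ± 0.20 SE, adjusted p = 0.000537, edgeR) and 1.95-fold in GFP-high over GFP-low cells (log2 -0.96 ± 0.20, adjusted p = 0.00275, edgeR). Without diet as a term the second of these did not pass (adjusted p = 0.290, edgeR).

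The diet ratio of Mmp7 was smaller in GFP-high cells, where HFD was 2.37-fold lower than control (log2 -1.24, 95% interval -1.48 to -1.01), than in GFP-low cells, where it was 5.05-fold lower (log2 -2.34, -2.55 to -2.12). The difference of those log2 ratios was 1.09, with a counting interval of 0.78 to 1.402. GFP-high over GFP-low cells gave a log2 ratio of -0.33 (-0.60 to -0.06) under HFD and -1.42 (-1.58 to -1.26) under the control diet. With 1 library per group these intervals compare libraries, and whether such a difference would recur between pools of mice was not measured.

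Ang4, a secreted ribonuclease with antimicrobial activity, was at 16.4 CPM in HFD GFP-high cells and 25.2 CPM in control GFP-high cells. It was at 62.9 CPM in HFD GFP-low cells and 110 CPM in control GFP-low cells. Ang4 had the largest fraction ratio of the tested members, 4.11-fold lower in GFP-high cells (log2 -2.04 ± 0.13 SE, adjusted p = 1.05e-06, edgeR), and both GFP-high libraries lay far below both GFP-low libraries. It fell 1.66-fold under HFD (log2 -0.73 ± 0.13, adjusted p = 0.00788, edgeR), with -0.62 (95% interval -0.99 to -0.24) in GFP-high and -0.81 (-1.02 to -0.60) in GFP-low cells. The interval of the difference of those ratios, -0.23 to 0.61, includes 0.

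Itln1, a lectin that binds sugars of microbial surfaces and in mouse intestine is found in goblet as well as Paneth cells, was at 95.4 CPM in HFD GFP-high cells and 179 CPM in control GFP-high cells. It was at 258 CPM in HFD GFP-low cells and 688 CPM in control GFP-low cells, the highest of its values by far. Itln1 fell 2.25-fold under HFD (log2 -1.17 ± 0.12 SE, adjusted p = 0.00038, edgeR) and 3.25-fold in GFP-high over GFP-low cells (log2 -1.70 ± 0.13, adjusted p = 2.71e-06, edgeR). As with Mmp7, the diet ratio was smaller in GFP-high cells, -0.91 (95% interval -1.05 to -0.76), than in GFP-low cells, -1.41 (-1.51 to -1.32). The difference of the log2 ratios was 0.51 (0.34 to 0.68). GFP-high over GFP-low cells gave -1.44 (-1.58 to -1.30) under HFD and -1.95 (-2.05 to -1.84) under the control diet.

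Defa24, an alpha-defensin, was at 56.7 CPM in HFD GFP-high cells and 81.3 CPM in control GFP-high cells. It was at 133 CPM in HFD GFP-low cells and 255 CPM in control GFP-low cells. Its order over the libraries was that of Lyz1 and of every other member but Mmp7. Defa24 fell 1.68-fold under HFD (log2 -0.75 ± 0.12 SE, adjusted p = 0.00422, edgeR) and 2.72-fold in GFP-high over GFP-low cells (log2 -1.44 ± 0.12, adjusted p = 5.78e-06, edgeR). Its diet ratio was -0.52 (95% interval -0.72 to -0.32) in GFP-high and -0.94 (-1.08 to -0.80) in GFP-low cells, a difference of 0.42 (0.18 to 0.66).

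Defa17, another alpha-defensin, was at 11.0 CPM in HFD GFP-high cells and 17.9 CPM in control GFP-high cells. It was at 22.1 CPM in HFD GFP-low cells and 50.6 CPM in control GFP-low cells. The HFD GFP-low library lay nearer to the GFP-high libraries than to the control GFP-low library. Defa17 fell 1.98-fold under HFD (log2 -0.99 ± 0.17 SE, adjusted p = 0.00823, edgeR) and 2.44-fold in GFP-high over GFP-low cells (adjusted p = 0.000182, edgeR). Without diet as a term the second did not pass (adjusted p = 0.0706, edgeR). Its diet ratio was -0.70 (95% interval -1.16 to -0.25) in GFP-high and -1.19 (-1.54 to -0.86) in GFP-low cells, and the interval of the difference, -0.05 to 1.04, includes 0.

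Habp2, a hyaluronan-binding serine protease, was at 9.04 CPM in HFD GFP-high cells and 10.4 CPM in control GFP-high cells. It was at 16.2 CPM in HFD GFP-low cells and 25.9 CPM in control GFP-low cells. The GFP-high libraries were close to each other. Habp2 fell 2.12-fold in GFP-high over GFP-low cells (log2 -1.09 ± 0.22 SE, adjusted p = 0.00214, edgeR). HFD over control gave a log2 ratio of -0.47 ± 0.22 (adjusted p = 0.264, edgeR), and a fall as large as that of Lyz1 lies within 1 SE of it. The ratio was -0.20 (95% interval -0.75 to 0.35) in GFP-high and -0.67 (-1.10 to -0.25) in GFP-low cells. Nrap, which overlaps it on the other strand, had 7 counts in both GFP-high libraries, and 37 and 18 in the HFD and control GFP-low libraries.

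Set against each other without a model, single libraries gave the same directions. In GFP-high cells the HFD value of 7 of 7 tested members was below the control value, as were 47.2% of all genes tested, and for 6 the whole counting interval lay below 0, as for 14.7% of genes, Habp2 being the other. In GFP-low cells 7 of 7 were below the control value, as were 49.4% of genes, and 7 had the whole interval below 0, as had 16.7% of genes. The values of Lyz2 were below control in both fractions, with intervals that include 0. At a change of at least 2-fold on log2(CPM + 0.5), among genes whose higher library had 5 CPM or more, 1 of 7 members was lower under HFD in GFP-high cells (Mmp7), where 1.52% of all such genes were. In GFP-low cells it was 3 of 7 (Mmp7, Itln1 and Defa17), where 2.63% were. Between fractions, 4 of 7 were at least 2-fold lower in GFP-high than in GFP-low cells under HFD, where 9% of genes were, and 7 of 7 under the control diet, where 9.17% were. With 0.1 CPM added in place of 0.5, Defa17 also reached 2-fold under HFD, which makes 5 of 7.

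**Figure D2:**
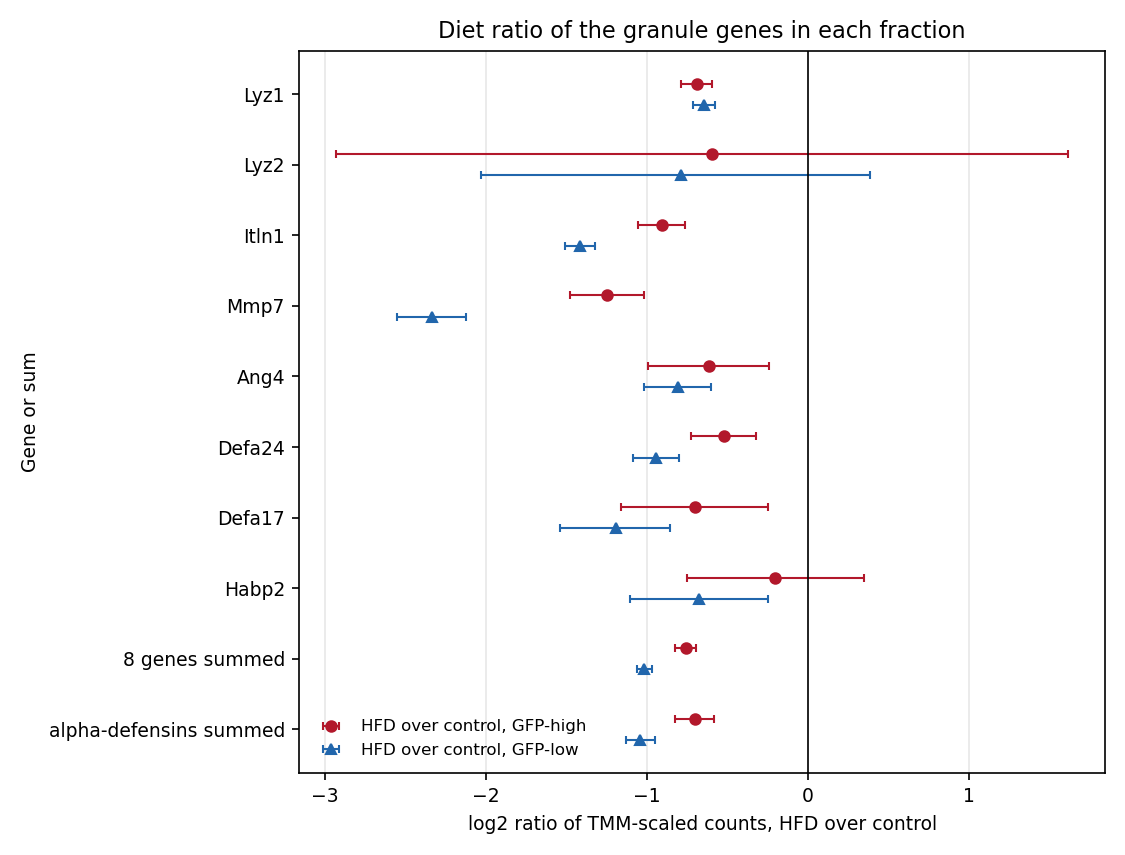
Log2 ratio of HFD over control for each member, for the sum of the 8 members and for the sum of the alpha-defensin family, in GFP-high (circles) and GFP-low (triangles) cells. Defa17 and Defa24 enter both sums. Bars are exact 95% intervals for the ratio of 2 counts. Every ratio is below 0, those of Mmp7 and Itln1 are nearer to 0 in GFP-high than in GFP-low cells, and those of Lyz1 are close to each other.

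Summed over the set, the 8 members reached 457 CPM in HFD GFP-high cells and 773 CPM in control GFP-high cells, a 1.69-fold lower level under HFD (log2 -0.76, 95% interval -0.83 to -0.69). They reached 1125 CPM in HFD GFP-low cells and 2274 CPM in control GFP-low cells, a 2.02-fold lower level under HFD (log2 -1.01, -1.06 to -0.97). Lyz1 supplied 50.9% of the member counts in HFD GFP-high cells and 48.5% in control GFP-high cells. It supplied 52.1% in HFD GFP-low cells and 40.3% in control GFP-low cells. Without Lyz1 the sums gave -0.83 in GFP-high and -1.33 in GFP-low cells.

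The make-up of the set thus differed between libraries. Itln1 supplied 20.9% and 23.1% of the member counts in HFD and control GFP-high cells, and 22.9% and 30.3% in HFD and control GFP-low cells. Mmp7 supplied 7.75% and 10.8% in HFD and control GFP-high cells, and 3.95% (exact 95% interval 3.45% to 4.50%) and 9.87% (9.30% to 10.5%) in HFD and control GFP-low cells. There were 6.57 Lyz1 counts per Mmp7 count in the HFD GFP-high library and 13.2 in the HFD GFP-low library, against 4.47 and 4.08 in the control GFP-high and control GFP-low libraries. Defa24 kept between 10.5% and 12.4% in all libraries.

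**Figure D3:**
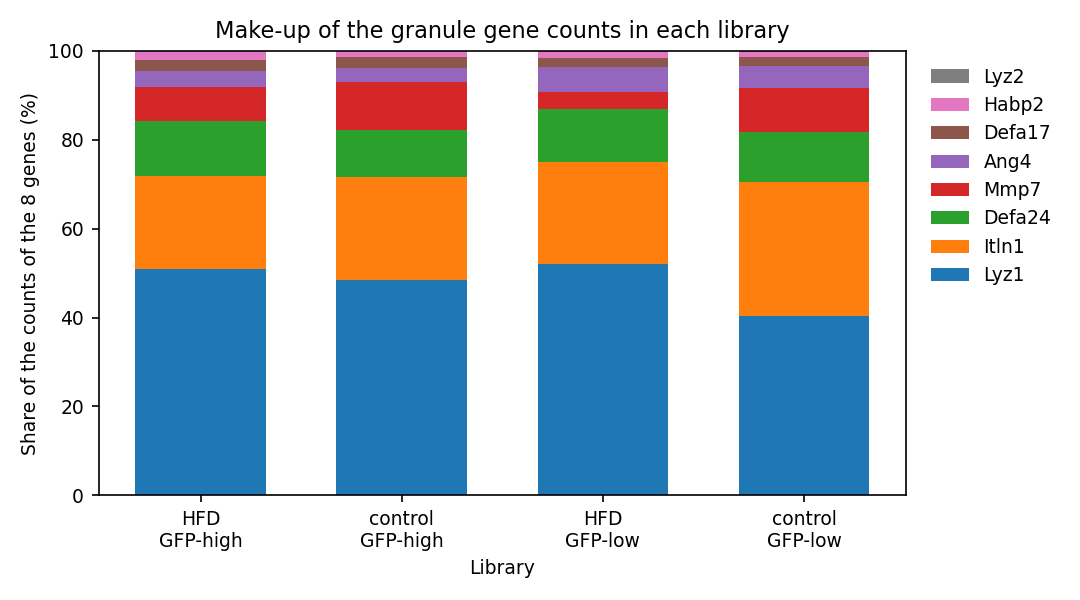
Share of each member in the summed counts of the 8 members, in percent, as 1 stacked bar per library. Lyz1 makes up 40.3% in control GFP-low cells and between 48.5% and 52.1% in the other libraries, and the share of Mmp7 is smallest, 3.95%, in HFD GFP-low cells.

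The alpha-defensin family as a whole had 41 gene IDs. Of these, 23 had no count in any library and 9 could be tested. Some IDs without a count, such as Defa2, Defa31 and Defa33, have 100% of their 40-base words in other genes. A read that matches several genes may be left uncounted, so the lack of counts does not show that these genes were silent. In edgeR's fit, 5 of the 9 tested genes fell under HFD and 4 did not pass, where 2.93% of all genes tested fell. In GFP-high over GFP-low cells 7 fell and 2 did not pass, where 24.8% of all genes tested fell. Near-identical genes among the 9 can share reads, so these are not separate observations. The median log2 ratio for diet over these 9 was -0.67, against 0.01 over all genes tested. Summed over all IDs, Defa17 and Defa24 included, the family reached 142 CPM in HFD GFP-high cells and 231 CPM in control GFP-high cells (log2 -0.70, 95% interval -0.83 to -0.58). It reached 308 CPM in HFD GFP-low cells and 633 CPM in control GFP-low cells (log2 -1.04, -1.13 to -0.95). The sum joins the reads counted for these copies, and reads that match several of them may be missing from it. Predicted genes outside the family's symbols share sequence with the family and are not in the sum. An example is Gm14851, which holds 34.5% of the 40-base words of Defa29. Gm14851, looked up after its values were seen, had 53 and 81 counts in HFD and control GFP-high cells, and 110 and 170 in HFD and control GFP-low cells.

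Within the family, AY761184 was at 27.1 CPM in HFD GFP-high cells and 65.5 CPM in control GFP-high cells, and at 62.7 CPM in HFD GFP-low cells and 202 CPM in control GFP-low cells. It fell 2.84-fold under HFD (log2 -1.50 ± 0.13 SE, adjusted p = 8.51e-05, edgeR). Defa30 was at 10.4 and 15.5 CPM in HFD and control GFP-high cells, and at 27.8 and 46.1 CPM in HFD and control GFP-low cells, and fell 1.59-fold under HFD (adjusted p = 0.0389, edgeR). Defa20 gave a log2 ratio of -0.44 ± 0.18 for diet (adjusted p = 0.220, edgeR) and of -0.42 ± 0.18 for fraction (adjusted p = 0.0872, edgeR), so neither passed. Defa22 gave -0.23 ± 0.30 for diet (adjusted p = 0.728, edgeR).

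The tested family genes fell into 4 groups by their last 105 coding bases, with at most 10 differences inside a group. These groups were formed after the values had been seen and are given as a description. Because genes of a group can share reads, counts were summed within each group. Reads that match several genes may be missing from these sums if the counting left them out. The sequence of 1 gene of each group other than that of Defa24 is shown, followed by the diet ratios of the groups. The counting intervals of several groups overlap, and whether the groups differ was not tested.
AY761184: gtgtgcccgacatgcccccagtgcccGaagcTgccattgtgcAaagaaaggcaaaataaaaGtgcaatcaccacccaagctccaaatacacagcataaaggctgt
Defa20: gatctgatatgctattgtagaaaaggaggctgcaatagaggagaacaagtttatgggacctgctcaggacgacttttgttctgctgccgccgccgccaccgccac
Defa22: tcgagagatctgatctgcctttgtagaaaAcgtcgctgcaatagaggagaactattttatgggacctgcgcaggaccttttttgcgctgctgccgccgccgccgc

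Capitals mark where Defa29 differs from AY761184, at 4 bases, and where Defa21 differs from Defa22, at 1 base; Defa32 and Defa20 have the same bases. The group of AY761184 and Defa29 was at 29.4 and 70.9 CPM in HFD and control GFP-high cells, and at 67.8 and 215 CPM in HFD and control GFP-low cells. Its log2 ratio for diet was -1.27 (95% interval -1.53 to -1.02) in GFP-high and -1.66 (-1.85 to -1.48) in GFP-low cells. The group of Defa24, Defa17 and Defa30 gave -0.56 (-0.73 to -0.39) and -0.94 (-1.06 to -0.83) in GFP-high and GFP-low cells. For Defa20 and Defa32 the ratio was -0.32 (-0.69 to 0.05) in GFP-high and -0.48 (-0.85 to -0.11) in GFP-low cells. For Defa22 and Defa21 it was -0.63 (-1.10 to -0.17) in GFP-high and 0.21 (-0.17 to 0.58) in GFP-low cells.

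**Figure D4:**
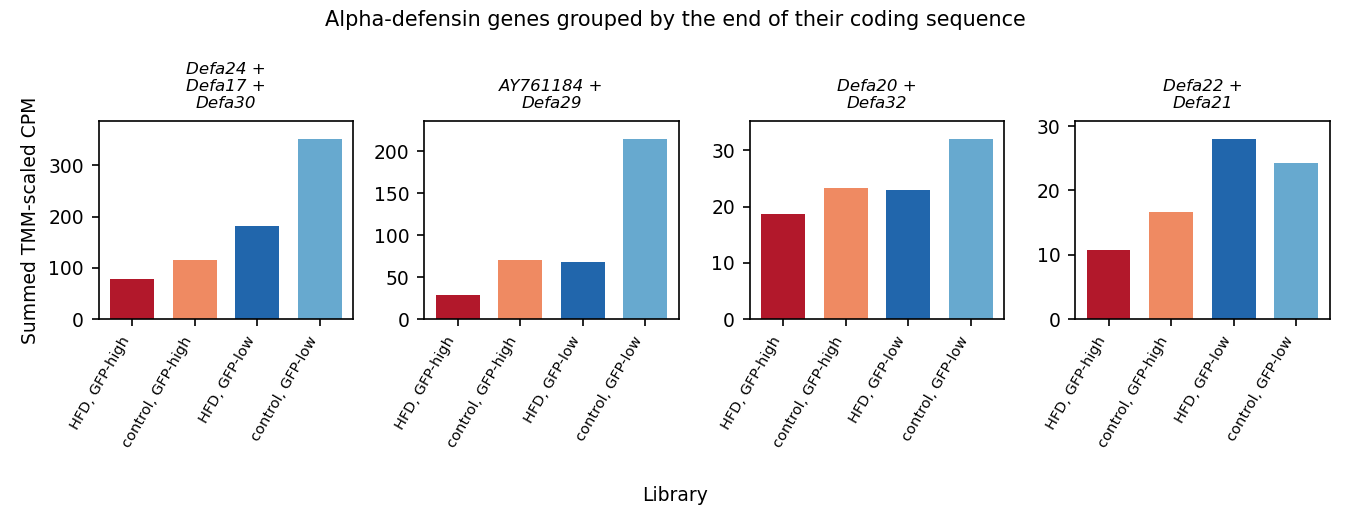
Summed level of each alpha-defensin sequence group in each library, in TMM-scaled CPM, as 1 bar per library without error bars; each panel has its own axis from 0. The control GFP-low bar is the highest for the groups of Defa24, AY761184 and Defa20, and the HFD GFP-low bar for that of Defa22.

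The promoter windows of 6 members were available from RefSeq (GRCm38.p6), from 250 bases before to 50 bases after a start site, 7 windows in all. They were searched on both strands for CTTTGAT, the core letters bound by TCF/LEF factors of the Wnt pathway, which is known to drive Paneth cell genes in mice. Among the members it was found for Mmp7 alone, as the reverse complement ATCAAAG, and 3.73% of all 32851 windows held it. In the alpha-defensin family it was found for 12 of the 13 genes with a window. The letters TATAAA, the TATA box, were in 13.6% of all windows, in that of Mmp7, and in 12 of those 13. As related copies in a cluster, the 13 genes are not separate observations. The stretches from 150 bases before to 20 after the start of Mmp7 (chr9:7691940-7692109, plus strand) and of Defa30 (chr8:21134500-21134669, plus strand) are shown with these letters in capitals.
Mmp7: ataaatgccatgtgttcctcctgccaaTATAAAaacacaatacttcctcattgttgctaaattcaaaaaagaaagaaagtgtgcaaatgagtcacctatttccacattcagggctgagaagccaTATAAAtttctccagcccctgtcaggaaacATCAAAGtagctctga
Defa30: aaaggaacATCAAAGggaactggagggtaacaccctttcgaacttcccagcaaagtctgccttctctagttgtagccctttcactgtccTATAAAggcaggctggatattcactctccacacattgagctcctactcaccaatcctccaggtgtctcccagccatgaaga

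The letters CAGCTG, an E-box of the kind that basic helix-loop-helix factors such as Atoh1 bind, were in 16.3% of all windows and, among the members, in those of Lyz1 and Lyz2, 7 bases after the start. The last 150 bases of these windows, which hold the match, differed at only 9 bases between Lyz1 and Lyz2. In the alpha-defensin family CAGCTG was found for 1 of the 13 genes with a window. None of the 3 motifs was in the windows of Ang4, Itln1 and Habp2. A match describes these letters in this window and no binding was measured.

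Other products of Paneth cells were read from a list of 15 genes. Of its 12 tested genes, 6 fell under HFD and none rose, with a median log2 ratio of -1.01. Over all genes tested 2.93% fell and 2.15% rose under HFD, and the counts of this list and those below are to be read beside these shares. Reg3b, an antibacterial C-type lectin, was at 2.26 and 79.7 CPM in HFD and control GFP-high cells, and at 36.1 and 468 CPM in HFD and control GFP-low cells, and fell 16.2-fold under HFD (adjusted p = 1.54e-06, edgeR). Reg3g, its close relative, fell 9.72-fold (adjusted p = 1.78e-07, edgeR). At the other end of the list, Reg3a and Ttr gave log2 ratios of 0.52 and 0.82 and did not pass (adjusted p = 0.437 and 0.0852, edgeR). The Reg3 lectins are also made by enterocytes.

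Genes for the signals and surface of Paneth cells moved less. Of 10 tested genes, Dll4, a Notch ligand, fell under HFD, 1.83-fold (adjusted p = 0.0371, edgeR), and the other 9 did not pass. Kit, a receptor kinase of Paneth and goblet cells, gave a log2 ratio of -0.51 (adjusted p = 0.0593, edgeR). Of 10 tested factors of Paneth and secretory fate, 3 fell and none rose. Atoh1, which commits progenitors to the secretory lineage, was at 38.3 and 44.1 CPM in HFD and control GFP-high cells, and at 82.0 and 180 CPM in HFD and control GFP-low cells, and fell 1.66-fold (adjusted p = 0.0444, edgeR). Spdef, a factor of goblet and Paneth cell maturation, gave -0.70 (adjusted p = 0.0634, edgeR).

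Of 14 tested genes for granule handling, autophagy and the unfolded protein response, 0 passed for diet, and their median log2 ratio was -0.08. Agr2, a protein disulfide isomerase of secretory cells, gave a log2 ratio of -0.51 (adjusted p = 0.139, edgeR), the lowest among those at 10 CPM or more in 2 libraries. In GFP-high over GFP-low cells 9 of the 14 fell and 1 rose, where 24.8% and 21.4% of all genes tested did. In that comparison 9 of the 12 other Paneth products fell and 1 rose. For the signal and surface genes it was 5 and 3 of 10, and for the fate factors 7 and 1 of 10. Of 8 tested relatives of the members, 3 fell and 1 rose under HFD. Hgfac, a serine protease of the same family as Habp2, fell 1.86-fold (adjusted p = 0.0249, edgeR) and the metalloproteinase Mmp15 fell 1.77-fold (adjusted p = 0.0027, edgeR). Timp3, an inhibitor of metalloproteinases, rose 2.46-fold (adjusted p = 0.0388, edgeR), at 14.2 and 7.29 CPM in HFD and control GFP-high cells, and at 10.4 and 2.72 CPM in HFD and control GFP-low cells.

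Markers of other epithelial lineages moved with the members in part. The 12 goblet cell markers summed to 3308 and 3727 CPM in HFD and control GFP-high cells (log2 -0.17), and to 18185 and 41249 CPM in HFD and control GFP-low cells (log2 -1.18). Of them 5 fell under HFD and none rose, where 2.93% and 2.15% of all genes tested did. Muc2, the gel-forming mucin of goblet cells, fell 1.98-fold (adjusted p = 0.0120, edgeR). The 12 enteroendocrine markers summed to 118 and 86.8 CPM in HFD and control GFP-high cells (log2 0.44), and to 573 and 1288 CPM in HFD and control GFP-low cells (log2 -1.17), and of 9 tested 1 fell. In GFP-high cells the sum of the members had a log2 ratio of -0.76, further below 0 than either marker sum, and in GFP-low cells its -1.01 was near to both. Fcgbp alone held between 60.5% and 63.2% of the goblet sum. Chgb and Reg4 held 324 and 218 of the 784 enteroendocrine counts in HFD GFP-high cells, and 197 and 132 of the 476 in control GFP-high cells. Not every enteroendocrine marker was higher under HFD there, since Sct was at 1.36 and 4.19 CPM in HFD and control GFP-high cells. By the median over single genes in the fit of both fractions, the lists were close, at -0.75 for the 7 tested members and -0.74 for both the 12 goblet and the 9 enteroendocrine genes.

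Taken as a sum, the 12 enterocyte markers went the other way. They summed to 769 and 529 CPM in HFD and control GFP-high cells (log2 0.54), and to 6315 and 2927 CPM in HFD and control GFP-low cells (log2 1.11). Under HFD 6 of the 12 rose, where 2.15% of all genes tested did, and the other 6 did not pass. Fabp1, a fatty acid binding protein of enterocytes, rose 8.99-fold (adjusted p = 1.10e-06, edgeR). At the other end of this list, Krt20 and Anpep gave log2 ratios of -0.39 and -0.28 and did not pass (adjusted p = 0.155 and 0.197, edgeR). The stem cell markers had log2 ratios of -0.15 in GFP-high and -0.39 in GFP-low cells for diet, and 1 of 12 fell. The part of these shifts in lineage markers in the diet ratios of the members was not tested.

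Markers of leukocytes, among them the cells known for Lyz2, had few counts. Of 24 leukocyte markers, 13 had no count in any library, and Ptprc, the common leukocyte antigen, had 0 counts in each. The list summed to 20.9 and 49.4 CPM in HFD and control GFP-high cells (log2 -1.24), and to 28.2 and 44.5 CPM in HFD and control GFP-low cells (log2 -0.66). Cd14, Itgam and Cd68 held nearly all of it, since the other 21 markers had 4 and 9 counts in HFD and control GFP-high cells, and 5 in each of the GFP-low libraries. Of the 2 markers tested, Cd14, a receptor for bacterial lipopolysaccharide, fell 3.67-fold under HFD (adjusted p = 0.00144, edgeR). Itgam gave a log2 ratio of -0.36 and did not pass (adjusted p = 0.350, edgeR). Cd14 held 52 of the 139 counts of the list in HFD GFP-high cells and 179 of the 271 in control GFP-high cells. The part of such cells in the counts of Lyz2 was not tested.

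**Figure D5:**
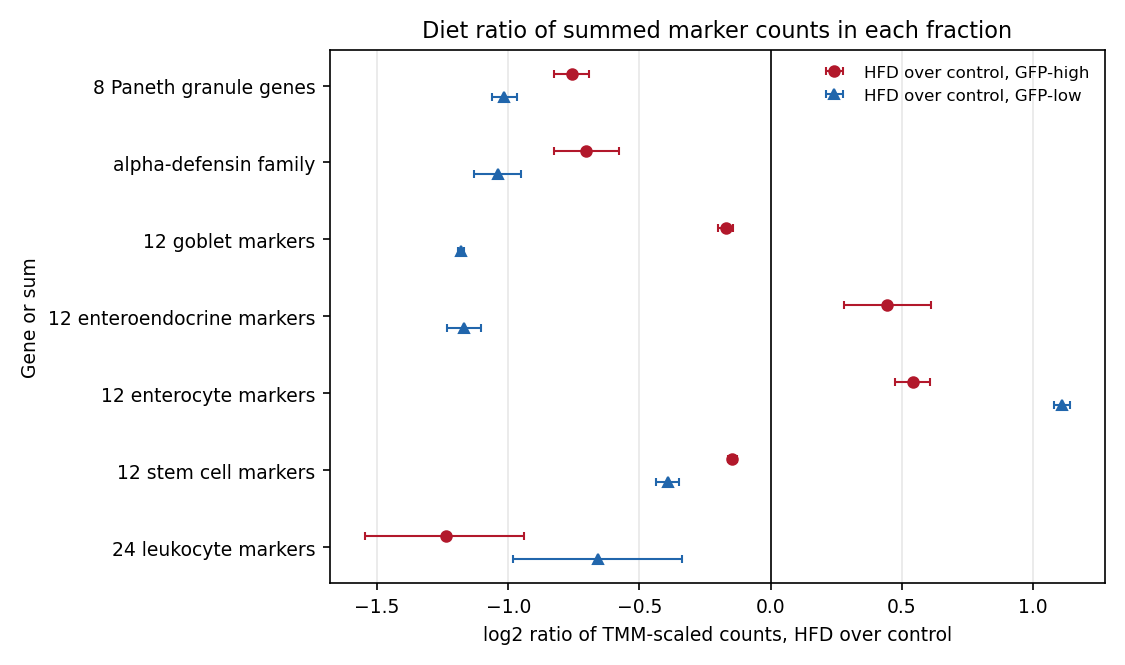
Log2 ratio of HFD over control for the summed counts of the 8 members, of the alpha-defensin family and of each list of cell type markers, in GFP-high (circles) and GFP-low (triangles) cells, with exact 95% intervals for the ratio of 2 counts as bars. Defa17 and Defa24 enter both the member sum and the family sum. The goblet and enteroendocrine sums lie near the members in GFP-low cells and at -0.17 and 0.44 in GFP-high cells, the enterocyte sums lie above 0 in both, and the leukocyte sums lie below 0 in both.

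The pattern of Lyz1 over the 4 libraries was compared with that of 8906 other genes by the root mean square difference of log2 levels after centring each gene on its mean. The nearest genes were Parp12 at 0.02, Kdm7a at 0.05, Irf7 at 0.08 and Mxd1 at 0.10, followed by Parp3, Capn8, Fam117a and Fgd6, the last at 0.16. Defa24 was at 0.13 with 7 of those genes nearer than it, Defa17 at 0.19 and Habp2 at 0.22. Lyz2 was at 0.14, but it had 4 to 17 counts per library, and the 0.5 CPM added before the logs sets much of its pattern. Its log2 ratios of GFP-high over GFP-low cells were -1.31 under HFD and -1.63 under control with the added CPM, against -1.89 and -2.08 without. The place of Lyz2 in this ranking is therefore not reliable. Itln1 and Ang4 lay further off, at 0.34 and 0.35. Mmp7 was the furthest member, at 0.66, with 2907 genes nearer to Lyz1 than it. All genes share the same 4 libraries and their scaling, so this is a ranking of likeness only.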

How the data were processed

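RNA from sorted cells was sequenced as strand-specific dUTP libraries, per the labels' protocols. The authors deposited raw counts per gene. Tools named in the submitters' processing notes are cutadapt, TopHat 1.4.1 and HTSeq, with GRCm38 and mm10 as builds; the sources used here give no annotation release and no strand setting. Of the 38124 IDs, 36345 matched a symbol; 1779 did not and stayed in the test.

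Genes reaching 20 counts in 2 or more libraries, 10694 in all, were fitted with edgeR 4.0.16 in R 4.3.3 (TMM scaling, glmQLFit and glmQLFTest, two-sided, terms for diet and fraction, 4 libraries), adjusted by Benjamini-Hochberg and called under 0.05. The common dispersion was 0.00694 (biological coefficient of variation 0.0833) and the prior degrees of freedom 9.55. The p-values reflect no more than the spread among these libraries, possibly technical, and any diet-by-fraction difference enters that spread. Ratios of single libraries have exact 95% intervals for 2 Poisson counts (SciPy 1.17.1), ratio differences a normal interval on the log of 4 counts. Scripts were tested on simulated data. Gene positions and transcripts are those of the GENCODE annotation of GRCm38, and promoter windows those of RefSeq.

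The members, lists and motifs were chosen with earlier results of these data known. All members were named, with the 6 most abundant alpha-defensin genes, the 2 highest and 2 lowest genes of each list by diet ratio at 10 CPM or more in 2 libraries, and the 8 genes nearest to Lyz1; the text gives those of each list that its account needs. Lgr5, Cd68, Fcgbp, Chgb, Sct, Defa29 and Gm14851 were added after their values were seen. The alternatives were DESeq2 size factors and no scaling, other count filters, DESeq2 1.42.0 with its Wald test, a fit without the other factor, a summed alpha-defensin family, and other pseudocounts. TMM computed over all genes before the filter was added after seeing the data.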

Additional observations from a re-analysis of the deposited data

Results flagged for a closer look

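Defa22, an alpha-defensin outside the 8 members, had opposite diet ratios in the fractions. On log2(CPM + 0.5), HFD over control was -0.72 in GFP-high cells (4.67 and 8.02 CPM under HFD and control) and 0.17 in GFP-low cells (14.4 and 12.7 CPM). Each value comes from 1 library and this difference was not tested between replicates. The difference of the log2 ratios without the added CPM was -0.96, with a counting interval of -1.80 to -0.13 that excludes 0. The counting interval of the GFP-low ratio without the added CPM, -0.34 to 0.71, includes 0. Of the 40-base words of Defa22, 85.3% occur in other genes, so its counts may be partly theirs.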

How the results depend on the processing

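No diet or fraction ratio of a member or of the member sum changed sign under the alternatives run; the defensin groups, marker sums, ratio differences and likeness were not recomputed. Without the other factor as a term, 2794 in place of 4940 genes passed for fraction, 0 in place of 543 for diet, and 0 in place of 6 members for diet (adjusted p = 0.9999 for each of the 6, edgeR). DESeq2's Wald test called 2390 genes for fraction and 189 for diet. Without a filter on low counts 1133 genes passed for diet. The members called ranged from 5 to 8 for fraction, Lyz2 being the eighth when no filter was used (adjusted p = 0.0193, edgeR). For diet, the other scalings, filters and the summed family left 5 or 6 members called. Scaling by library totals alone shifted the median fraction ratio of all genes by 0.19 on the log2 scale, with 3639 genes higher and 1931 lower in GFP-high cells in place of 2291 and 2649. It moved the fraction ratio of the member sum to -1.09 under HFD and -1.39 under control. Without Lyz1 the diet ratio of the sum moved to -0.83 in GFP-high and -1.33 in GFP-low cells, and the fraction ratio under control to -1.77. TMM over all genes before the filter, chosen after seeing the data, called 746 genes for diet, 6 members among them. Of 110 tested values for single members, 100 stayed on their side of the threshold and 10 lost it. Pseudocounts of 0.1 and 2 CPM left all 64 single-library ratios with their sign, and 0.1 turned 4 into 5 members at least 2-fold lower in GFP-high cells under HFD. No paired analysis was possible because the labels carry no replicate numbers; the fit with both terms already compares diets within fractions. Leaving out a library was not run as a test, since 3 libraries leave no residual degree of freedom. Depth limits Lyz2, with 4 to 17 counts per library, most.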
